A study of Sus scrofa with 6 samples.

Results

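The coat protein complex II (COPII) genes were examined in the myocardium of minipigs with chronic pressure overload. The members were the 10 genes for the small GTPases, the inner coat and the outer coat of COPII vesicles, taken by name, and all 10 were found among 13288 genes in the deposited table. Positions are those of the table on genome build susScr11. The table names 9 of them, and SEC24C, whose row carries no gene name, was found by its Ensembl identifier, ENSSSCG00000010306. RNA was sequenced from ventricular tissue of 3 sham and 3 DAC Tibetan minipigs, all male. In the DAC group the descending aorta was constricted by a suture, the sham group had the thoracotomy alone, and the hearts were collected 12 weeks after surgery. No genetic alteration is named for either group, each sample is 1 animal, and the animals' age was not given in the sources used here. The labels do not say which ventricle or wall layer was taken.

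COPII vesicles carry newly made secretory and membrane proteins from the endoplasmic reticulum (ER) toward the Golgi. The exchange factor PREB loads the GTPase SAR1 with GTP at the ER membrane, SAR1 recruits the SEC23 and SEC24 proteins of the inner coat, and SEC13 with SEC31 forms the cage around them. SEC24 binds the cargo, SEC23 stimulates the GTPase, and SEC16A and TFG organise the sites where the vesicles leave. In the heart this route serves collagen secretion by fibroblasts and the delivery of channels and receptors to the cell surface of cardiomyocytes.

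The values are fragments per kilobase of transcript and per unit of mapped fragments (FPKM), a scale corrected for length, so that levels of different genes can be compared. Summed FPKM was between 281377 and 308771 per sample. The mitochondrially encoded genes held 24.0% to 25.3% of it in the sham samples and 27.1% to 32.8% in the DAC samples, with the highest share in DAC replicate 5. The sequencing depth is unknown. The cardiomyocyte markers MYH7, at 1781 to 1935 FPKM, and MYL2, at 4149 to 5033 FPKM, were high in every sample. Of the fixed atrial list, MYL4 was at 1.08 to 3.79 FPKM in the sham samples and at 9.22, 0.780 and 17.6 FPKM in DAC replicates 4, 5 and 6. NPPA, MYL7 and KCNA5 of that list were not found by name in the deposited table, so they could not be examined. The part of these differences in any result was not tested.

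No COPII gene differed between the sham and DAC groups beyond the spread between minipigs. Differences were tested on log2(FPKM + 1) with limma over the 11029 genes that reached 1 FPKM in 3 or more samples. A gene was called at an unadjusted P under 0.05, the threshold of the study. None of the 10 members was called. Over all genes tested, 3.25% were called higher and 5.27% lower in the DAC group, so no call among 10 genes is near these shares. The groups overlapped in all 10 members. They did not overlap in 14.9% of all genes tested, and finding no such gene among 10 is not far from that share either. The log2 fold changes of the members lay between -0.16 for SEC23A and 0.14 for SEC13, with a median of -0.04, and the median of all genes tested was -0.02. The mean was lower in the DAC group in 6 members and higher in 4, against 5884 lower and 5145 higher of all 11029 genes tested. No member was called under any of 15 alternative settings, and the smallest unadjusted P from limma was 0.0707, for SEC24C when each gene had its own variance. After Benjamini-Hochberg adjustment of the limma P-values no gene of the whole table passed 0.05, and the lowest adjusted P was 0.106. The 95% interval of the difference lay within a 1.5-fold change either way on this scale for 8 of the 10 members, all but SAR1A and SAR1B. As these are bulk samples, fewer cells of a type and less RNA per cell cannot be told apart.

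**Figure D1:**
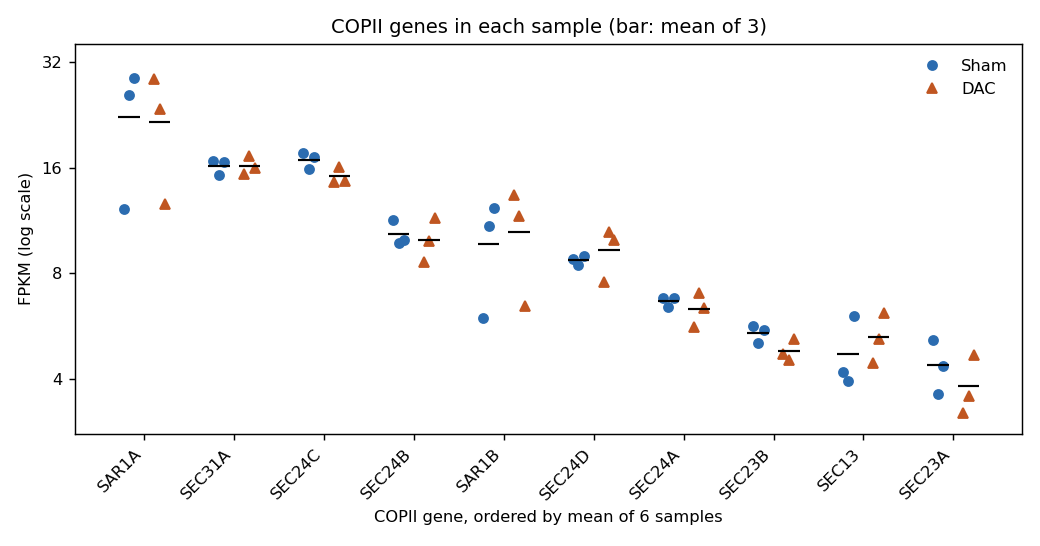
FPKM on a log scale of the 10 COPII genes in 3 sham samples (circles) and 3 DAC samples (triangles), with a bar at each group's mean, ordered by the mean of all 6 samples. The groups overlap in every gene, and SAR1A and SAR1B spread most, with 1 low sample in each group.

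The levels of the members spanned about the middle and upper part of the tested genes. SAR1A was highest with 22.0 ± 7.65 FPKM (SD, n = 6), followed by SEC31A with 16.2 ± 0.817 and SEC24C with 16.01 ± 1.23 FPKM. SEC24B, SAR1B and SEC24D were in the middle, at 10.2 ± 1.09, 10.1 ± 3.12 and 9.05 ± 1.06 FPKM. The lowest were SEC24A at 6.51 ± 0.495, SEC23B at 5.12 ± 0.445, SEC13 at 5.01 ± 0.955 and SEC23A at 4.11 ± 0.758 FPKM. In this order, SEC24C was above SEC24B and SEC24D was above SEC24A in all 6 samples without overlap of their ranges. SEC24A was also above SEC23B within each of the 6 samples. The other neighbours overlapped and changed places between samples. The members stood between the 37.7th and 84.3rd percentiles of mean level among the genes tested, whose median was 5.96 FPKM.

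The SAR1 GTPases start coat assembly, and both were far lower in 1 sample of each group. SAR1A (ENSSSCG00000010260, chromosome 14 from 73090943 to 73108156, minus strand) was at 12.2, 25.8 and 28.9 FPKM in sham replicates 1 to 3 and at 28.7, 23.5 and 12.6 FPKM in DAC replicates 4 to 6. SAR1B (ENSSSCG00000014305, chromosome 2 from 136843965 to 136874222, minus strand) was at 5.96, 10.9 and 12.3 FPKM in the sham samples and at 13.4, 11.6 and 6.47 FPKM in the DAC samples. Sham replicate 1 and DAC replicate 6 were thus the lowest samples of both genes, and the other 4 samples were close together. None of the other 8 members was lowest in sham replicate 1 or DAC replicate 6. SAR1 FPKM, summed over both genes, spanned a 2.31-fold range over the 6 samples, and the sum of the other 8 members a 1.19-fold range. The within-group SD of SAR1A was 0.61 on the log2 scale, higher than in 97.2% of the genes tested, and that of SAR1B was 0.50, higher than in 94.97%. The log2 fold change was -0.03 for SAR1A (95% interval -0.94 to 0.87, limma adjusted P = 0.985) and 0.10 for SAR1B (95% interval -0.65 to 0.85, limma adjusted P = 0.943). As folds of FPKM + 1, these intervals run from 0.522 to 1.83 for SAR1A and from 0.638 to 1.80 for SAR1B, and differences inside them were not detectable with these animals. Without DAC replicate 6 the log2 fold change of SAR1A was 0.30, and without sham replicate 1 it was -0.40.

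SAR1A exceeded SAR1B by about the same factor at high and at low levels. The ratio was 2.05, 2.36 and 2.35 in the sham samples and 2.14, 2.02 and 1.95 in the DAC samples. The DAC samples lay lower on average, but the groups overlapped. The mean log2 ratio was 1.17 ± 0.12 (SD, n = 3) in the sham group and 1.03 ± 0.07 (SD, n = 3) in the DAC group (P = 0.20, exact two-sided permutation test, adjusted P = 0.60 over 3 ratios, where 3 against 3 samples cannot give less than 0.10). SAR1A and SAR1B encode closely related proteins. How reads shared between such copies were assigned is not given in the sources used here, so the separate levels are uncertain. An unnamed gene on the same strand overlaps 8044 bp of SAR1A, with 0.444 to 1.14 FPKM.

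**Figure D2:**
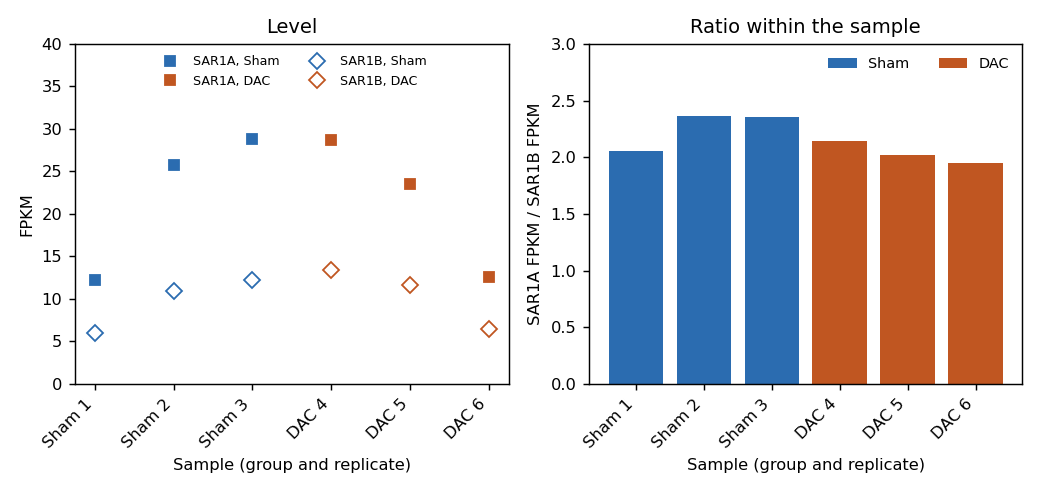
FPKM of SAR1A and SAR1B in each sample (left) and the SAR1A to SAR1B ratio within each sample (right), with sham in blue and DAC in orange. Both genes are low in sham replicate 1 and DAC replicate 6, whereas the ratio stays between 1.95 and 2.36.

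The inner coat gene SEC23 exists as the paralogs SEC23A and SEC23B, whose products stimulate GTP hydrolysis by SAR1. SEC23A (ENSSSCG00000001934, chromosome 7 from 61113802 to 61193258), the gene altered in cranio-lenticulo-sutural dysplasia, was at 5.18, 3.63 and 4.36 FPKM in the sham samples and at 3.20, 3.59 and 4.70 FPKM in the DAC samples. SEC23B (ENSSSCG00000007097, chromosome 17 from 26760046 to 26801155), the gene altered in congenital dyserythropoietic anemia type II, was at 5.68, 5.07 and 5.53 FPKM in the sham samples and at 4.71, 4.54 and 5.19 FPKM in the DAC samples. In both genes DAC replicates 4 and 5 were below all sham samples, and DAC replicate 6 lay within the sham range. The log2 fold change was -0.16 for SEC23A (SE 0.16, limma adjusted P = 0.791). It was -0.14 for SEC23B (SE 0.10, limma adjusted P = 0.709). SEC23A supplied 40.4% to 47.7% of the SEC23 FPKM. The mean log2 ratio of SEC23A to SEC23B was -0.32 ± 0.17 (SD, n = 3) in the sham group and -0.35 ± 0.21 (SD, n = 3) in the DAC group (P = 0.80, adjusted P = 0.90, exact permutation test).

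The SEC24 paralogs select cargo and fall into the pairs SEC24A with SEC24B and SEC24C with SEC24D. SEC24C (chromosome 14 from 76473776 to 76499125) was the most abundant in every sample, with 17.6, 15.9 and 17.1 FPKM in the sham group and 14.6, 16.1 and 14.7 FPKM in the DAC group. DAC replicate 5 lay within the sham range and the other DAC samples below it. Its log2 fold change was -0.15 (SE 0.10, limma adjusted P = 0.699). SEC24D (ENSSSCG00000009112, chromosome 8 from 104808940 to 105005400) was at 8.80, 8.47 and 8.98 FPKM in the sham samples and at 7.57, 10.5 and 9.97 FPKM in the DAC samples. The DAC samples of SEC24D thus fell on both sides of the sham samples, and its log2 fold change was 0.07 (SE 0.13, limma adjusted P = 0.891). SYNPO2, a muscle gene on the other strand with 19.0 to 29.1 FPKM, shares 64852 bp with the SEC24D locus, and no source used here says that strand was kept in the counting.

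SEC24B (ENSSSCG00000009142, chromosome 8 from 112670533 to 112762858) was at 9.74 to 11.3 FPKM in the sham samples and 8.60 to 11.5 FPKM in the DAC samples, with a log2 fold change of -0.05. SEC24A (ENSSSCG00000014304, chromosome 2 from 136883854 to 136952177) was at 6.43 to 6.81 FPKM in the sham samples and 5.63 to 7.02 FPKM in the DAC samples, with a log2 fold change of -0.07. The lowest value of both genes was in DAC replicate 4. SEC24A begins 9632 bp from the start of SAR1B on the opposite strand, with no listed gene between them. SEC24A showed no low value in sham replicate 1 (6.81 FPKM) or DAC replicate 6 (6.36 FPKM), the samples in which SAR1B was low. SEC24D gave 19.8% to 21.0% of the SEC24 FPKM in the sham group and 20.8% to 24.1% in the DAC group. SEC24C gave 39.2% to 40.01% in the sham group and 34.6% to 40.1% in the DAC group. The ratio of SEC24C plus SEC24D to SEC24A plus SEC24B was between 1.38 and 1.58, and its mean log2 was 0.59 in both groups (P = 0.90, adjusted P = 0.90, exact permutation test).

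The outer coat is built from SEC13 and SEC31A. SEC31A (ENSSSCG00000009244, chromosome 8 from 135420884 to 135495121) had the smallest difference between the groups, with 16.7, 15.3 and 16.6 FPKM in the sham samples and 15.3, 17.3 and 15.98 FPKM in the DAC samples. Its log2 fold change was 0.00 (95% interval -0.24 to 0.24, limma adjusted P = 0.998). SEC13 (ENSSSCG00000011572, chromosome 13 from 66480151 to 66524344), which also belongs to the nuclear pore and to a nutrient-sensing complex, was at 4.19, 3.96 and 6.04 FPKM in the sham samples and at 4.45, 5.21 and 6.18 FPKM in the DAC samples. The high value of sham replicate 3 lay within the DAC range, and the log2 fold change of SEC13 was 0.14 (SE 0.17, limma adjusted P = 0.836). Without sham replicate 3 it was 0.30. SEC31A exceeded SEC13 by 2.58- to 3.99-fold. Summed over all 10 members, FPKM was 105 ± 11.0 (SD, n = 3) in the sham group and 103 ± 8.33 (SD, n = 3) in the DAC group. DAC replicate 4 was below all sham samples in 6 of the 10 members and was the lowest of all samples in 5.

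**Figure D3:**
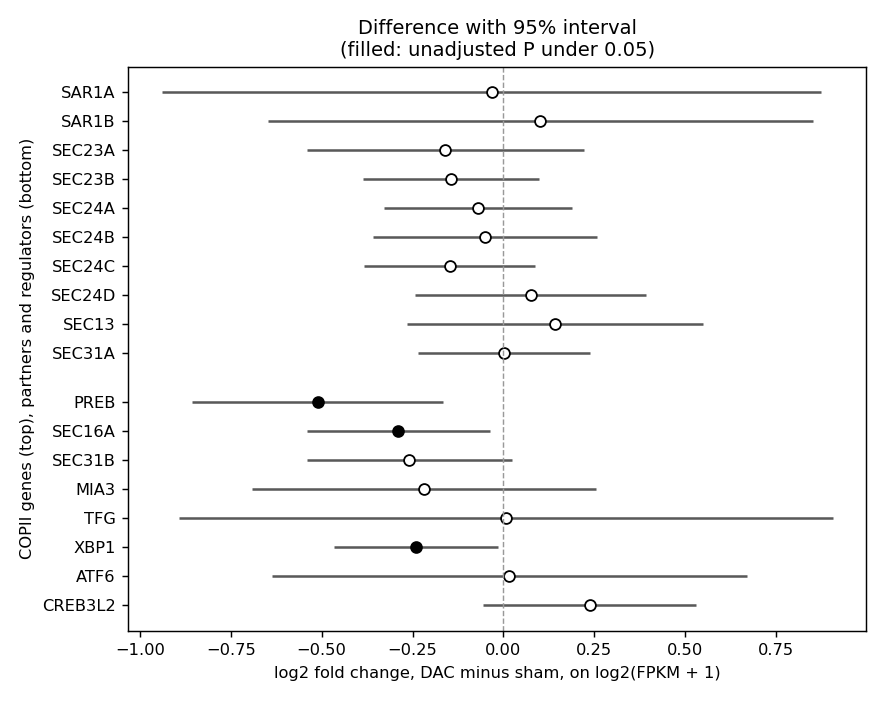
Difference between DAC and sham on log2(FPKM + 1) with its 95% interval from limma for the 10 COPII genes (top) and 8 partners and regulators (bottom), where filled points have an unadjusted P under 0.05. Every interval of a COPII gene includes 0, the widest are those of SAR1A and SAR1B, and the filled points are PREB, SEC16A and XBP1.

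Of the genes around the coat, PREB and SEC16A, which act at the start of its assembly, were called lower in the DAC group, without passing adjustment over all genes. Of 15 tested genes for ER exit site organisation and the SAR1 cycle, 3 were called lower and none higher, against 5.27% and 3.25% of all genes tested. Their median log2 fold change was -0.14, and the mean was lower in 13 of the 15, against 5884 of all 11029 genes tested. The groups did not overlap in 4, all lower in the DAC group, against 14.9% of all genes tested in either direction. With the mitochondrially encoded genes left out, 2 genes of this list were called lower. The study listed protein exit from the ER among its downregulated processes in these same samples, so these calls are not independent of that result. Which genes it counted is not given in its text. PREB (ENSSSCG00000008553, chromosome 3 from 111992391 to 112023505), the exchange factor that activates SAR1, was at 8.79, 6.35 and 9.36 FPKM in the sham samples and at 5.29, 5.47 and 5.33 FPKM in the DAC samples. The DAC samples were nearly equal and all below the lowest sham sample. Its log2 fold change was -0.51 (SE 0.15, limma adjusted P = 0.5001), and PREB was called under all 15 alternative settings. The PREB locus overlaps KHK, ABHD1 and an unnamed gene, each with at most 2.34 FPKM in any sample.

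SEC16A (ENSSSCG00000034854, on a scaffold not placed on a chromosome), which organises ER exit sites, was at 9.48, 9.47 and 8.30 FPKM in the sham samples and at 7.69, 6.73 and 7.33 FPKM in the DAC samples. All DAC samples lay below all sham samples, with a log2 fold change of -0.29 (SE 0.11, limma adjusted P = 0.557). SEC16A was called in 2 of the 6 fits that left out a sample, and its overlapping neighbour SSNA1, on the other strand, was at 21.7 to 26.1 FPKM. ULK1, an autophagy kinase that also acts on COPII proteins, was at 22.9 ± 2.69 FPKM in sham hearts and 17.3 ± 2.38 FPKM in DAC hearts (SD over 3 animals each), a log2 fold change of -0.39. It was called in 3 of the 6 fits with a sample left out. SEC31B, the paralog of SEC31A, was at 3.62, 2.75 and 3.30 FPKM in the sham samples and 2.36, 2.47 and 2.72 FPKM in the DAC samples. Its groups did not overlap, but the log2 fold change of -0.26 was not called (limma adjusted P = 0.596). MIA3, the receptor that helps load procollagen into COPII vesicles, was at 25.0 ± 1.05 FPKM (SD, n = 3) in sham hearts and at 27.1, 23.5 and 15.2 FPKM in the DAC samples. TFG was high in 1 sample of each group, with 10.1 FPKM in sham replicate 1 and 9.45 FPKM in DAC replicate 4 against 3.68 to 4.73 FPKM elsewhere.

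**Figure D4:**
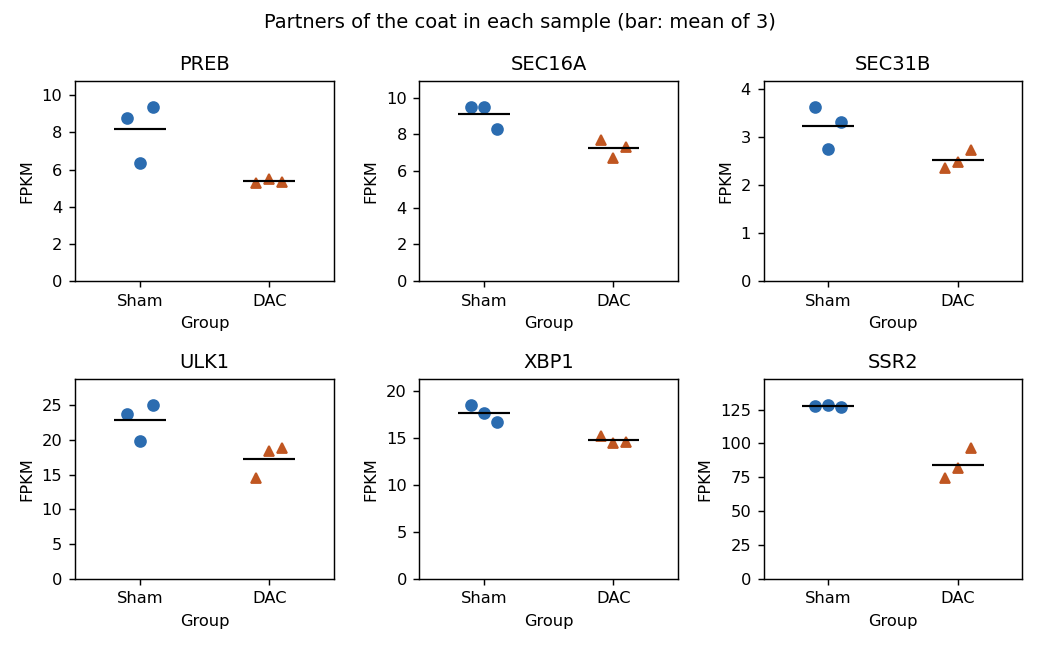
FPKM of PREB, SEC16A, SEC31B, ULK1, XBP1 and SSR2 in 3 sham samples (circles) and 3 DAC samples (triangles), each axis starting at 0, with a bar at the mean. All DAC samples lie below all sham samples in each of these genes, which were shown for that and for their place in the pathway.

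Transcription factors of the ER stress response are known to act on COPII genes. XBP1 was at 18.5, 17.6 and 16.8 FPKM in the sham samples and at 15.2, 14.5 and 14.6 FPKM in the DAC samples, without overlap. Its log2 fold change was -0.24 (SE 0.10, limma adjusted P = 0.584), and it was called in 1 of the 6 fits with a sample left out. Of the other 9 alternative settings, 6 kept the call. It was lost with median scaling, with quantile normalization and with the mitochondrially encoded genes left out. No other of the 10 tested genes of this list was called. ATF6 varied within both groups, from 3.81 to 8.21 FPKM in the sham samples and from 4.52 to 7.85 FPKM in the DAC samples. CREB3L2, known as an activator of SEC23A in secretory cells, was at 9.02 ± 0.552 FPKM in sham hearts and 10.9 ± 1.44 FPKM in DAC hearts (SD over 3 animals each). Its log2 fold change of 0.24 was not called (limma adjusted P = 0.635).

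Matrix proteins are a main cargo of the coat in fibroblasts, and genes for several of them were called higher in the DAC group. Of 16 tested genes for secreted matrix cargo, 8 were called higher in the DAC group and none lower, against 3.25% and 5.27% of all genes tested, with a median log2 fold change of 0.34. The study had named COL1A1, COL1A2, COL3A1, COL5A2 and FN1 among its fibrosis genes from these same samples. The list was chosen with earlier results known, so its share of calls is not an independent result. COL1A1 was at 94.0 ± 13.4 FPKM in sham hearts and 165 ± 26.4 FPKM in DAC hearts (SD over 3 animals each), a log2 fold change of 0.81. The log2 fold change was 0.98 for FN1, the fibronectin gene, 0.59 for COL1A2 and 0.71 for POSTN. Some of these genes also mark fibroblasts. Of 12 tested fibroblast markers, 4 were called higher, and all 4 are also in the matrix list. The summed fibroblast markers were between 748 and 868 FPKM in the sham samples and between 959 and 1138 FPKM in the DAC samples. The log2 fold change was positive in 9 of the 12 markers, against 5145 of all 11029 genes tested. The groups did not overlap in 5 markers, all higher in the DAC group, against 14.9% of all genes tested in either direction. The 8 fibroblast markers that were not called summed to 424 to 487 FPKM in the sham samples and 418 to 600 FPKM in the DAC samples. These 8 were picked by the same calls, so the overlap of their sums cannot show whether fibroblast content changed. Read against the same 3.25% higher and 5.27% lower over all genes, 1 of 13 tested cardiomyocyte markers was called lower (RYR2), and of 12 endothelial markers 2 were called higher (KDR and EMCN) and 3 lower (VWF, FLT1 and CLDN5). A single call each fell on 12 smooth muscle and pericyte markers (CNN1, higher) and 8 leukocyte markers (CD163, lower), and none on 1 red blood cell, 3 adipocyte and 5 atrial markers. The part of cell composition in the values of the coat and its partners was not tested.

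For the other steps between ER and Golgi, the calls are read against 3.25% higher and 5.27% lower over all genes tested, and a single call in a list of this size is near that share. Among 27 tested cargo receptors, TMED8 was called higher and none was called lower. None of 15 tested genes of the COPI coat, which returns vesicles from the Golgi, was called in either direction. Of these, ARF5 had the smallest P, with 20.1 ± 1.60 FPKM in sham hearts and 17.03 ± 0.136 FPKM in DAC hearts (SD over 3 animals each). Among 27 tethers, RABs and SNAREs, GORASP2, a Golgi stacking protein, was called lower with 68.1 ± 8.49 against 52.0 ± 5.19 FPKM (SD, n = 3 each). TRAPPC3, a subunit of a tethering complex, was called higher with 7.91 ± 2.53 against 11.6 ± 1.404 FPKM (SD, n = 3 each). None of 16 ER chaperones and folding enzymes was called, and P4HB, which has the smallest P among them, was at 69.4 ± 3.38 FPKM in the sham group and 60.2 ± 1.33 FPKM in the DAC group (SD, n = 3 each). The calls of TMED8, GORASP2 and TRAPPC3 were each lost in at least 3 of the 6 fits with a sample left out.

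**Figure D5:**
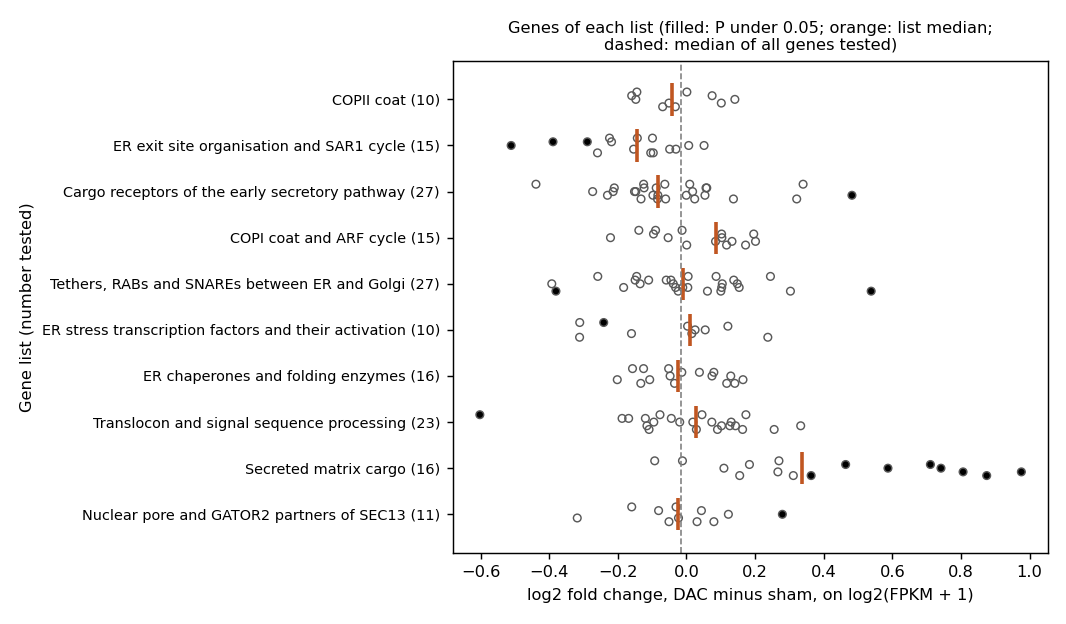
Log2 fold change (DAC minus sham) of each tested gene in the COPII list and 9 surrounding lists, with filled points for genes with an unadjusted P under 0.05, an orange bar at the list median and a dashed line at the median of all genes tested. The COPII median is -0.04, that of ER exit site genes is -0.14 and that of secreted matrix cargo is 0.34.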

How the data were processed

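RNA from ventricular tissue of 3 sham and 3 DAC minipigs was measured by RNA-seq, 1 library per animal. The authors deposited FPKM per gene for all 6 samples. Per the submitters' processing notes, HISAT2 and genome build susScr11 were used. The quantification program, strand setting and treatment of shared reads are not given in the sources used here. Every gene of the table reaches 0.5 FPKM in some sample. The values fall on no common steps, so reads could not be recovered, the depth is unknown and no counting interval is given. No sample column was duplicated.

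Missing gene names were filled by Ensembl identifier, which added 520 symbols and left 1920 genes without one. All 10 members overlapped their RefSeq position on Sscrofa11.1. The FPKM were taken as log2(FPKM + 1), which understates changes of low genes, and genes that reached 1 FPKM in 3 or more samples were tested with limma 3.58.1 (trend, R 4.3.3) without covariates, with Benjamini-Hochberg adjustment over 11029 genes. The fit was tested on simulated data. The 3 paralog ratios were compared with an exact two-sided permutation test in Python 3.11.15 with scipy 1.17.1. The named genes were all members, the called genes of each of 9 surrounding lists up to the 4 with the smallest P, the gene with the smallest P of a list with none called, and a few fixed partners. Marker genes are named only beside a result. The members and lists were chosen with earlier results of these data known. Alternatives were a pseudocount of 0.1, no filter or one of 5 FPKM, other normalizations, other variance models and leaving out each sample.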

Additional observations from a re-analysis of the deposited data

How the results depend on the processing

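The COPII genes gave 0 calls under each of the 9 alternative settings and 6 fits with a sample left out, and their median log2 fold change stayed between -0.08 and -0.00. Small differences changed sign. SAR1A turned to 0.011 with the mitochondrially encoded genes left out and to 0.0096 with quantile normalization, SEC31A to -0.0095 and TFG to -0.053 with sample weights. With 1 sample left out, the log2 fold change ranged from -0.40 to 0.30 for SAR1A, -0.18 to 0.39 for SAR1B, -0.14 to 0.0015 for SEC24A, -0.15 to 0.042 for SEC24B, -0.0077 to 0.21 for SEC24D and -0.045 to 0.038 for SEC31A. It ranged from -0.31 to 0.37 for TFG, -0.38 to 0.013 for MIA3 and -0.27 to 0.21 for ATF6. The log2 ratio difference ranged from -0.13 to 0.079 for SEC23A over SEC23B and from -0.039 to 0.057 for the SEC24 pairs. The cause was not tested. Of 160 tested genes in the 9 surrounding lists, 11 were called higher and 6 lower, against 3.25% and 5.27% of all genes tested. The lower calls are near that share, and 8 of the higher calls were matrix cargo genes. Over the alternatives the higher calls ranged from 7 (without DAC replicate 6) to 12. The lower calls ranged from 2 (without sham replicate 1) to 10 (without sham replicate 2). Among all genes, 358 were called higher and 581 lower. Requiring 5 FPKM left 165 higher of 6271 tested, and the lower calls were 359 without sham replicate 1 and 387 without sham replicate 3. Leaving out the mitochondrially encoded genes gave 500 higher and 407 lower. SEC23A was below the filter of 5 FPKM. No paired analysis was made, because the paper states that minipigs were randomly assigned to the groups and describes no pairing. With 3 animals per group and unknown depth, modest differences cannot be resolved.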

Other observations

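Upstream of the coat, 23 genes of the translocon and signal sequence processing were tested. SSR2, a subunit of the translocon-associated protein complex, was the only one called, and a single lower call in this list is near the 5.27% of all genes tested that were called lower. It was at 128, 129 and 127 FPKM in the sham samples and at 74.3, 81.7 and 96.9 FPKM in the DAC samples, without overlap. Its log2 fold change was -0.60 (SE 0.12, limma adjusted P = 0.379), and it was called under all 15 alternative settings. The median log2 fold change of the whole list was 0.03.

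SEC13 also serves the nuclear pore and the GATOR2 complex. Of 11 tested partners in these complexes, NUP107, a scaffold nucleoporin, was called higher, with 2.92 ± 0.305 FPKM in sham hearts and 3.75 ± 0.258 FPKM in DAC hearts (SD over 3 animals each). It was called in 1 of the 6 fits with a sample left out, and no partner was called lower, against 3.25% higher and 5.27% lower over all genes tested.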
